A study of Mus musculus with 48 samples.

Results

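E-CAD+ 2NG- cells are mouse fibroblasts on the way to pluripotency that had gained the epithelial adhesion protein E-cadherin and lost CD44, but carried no ICAM1 on their surface and did not express GFP from the *Nanog* locus. Such cells were sorted from reprogramming driven by the MKOS or the OKMS cassette, and the 3 MKOS libraries were compared with the 3 OKMS libraries, 6 of the 48 libraries in the series. The members were chosen by their labels, and the transcript rows of the count table were used, 24264 in all, of which 16783 had a read in at least 1 of the 6 libraries. MKOS and OKMS each express *Myc* (M), *Klf4* (K), *Pou5f1* (Oct4, O), and *Sox2* (S) from 1 doxycycline-responsive construct, and the letters give their order.

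Both groups carried a *Nanog*-GFP reporter and 1 cassette targeted into *Sp3* in the TNG ESC line. MEFs were prepared from chimeric mid-gestation embryos of 129 background made with 1 targeted ESC line for each cassette, and were mixed with an excess of WT MEFs before doxycycline and vitamin C were given. The ESC clone therefore cannot be told apart from the cassette. WT cells were present in the cultures, and the share of them left after the gate for E-CAD+ cells without CD44 was not measured here. Cells were sorted on day 10 by the series text, or after 10 or 15 days by the growth protocol in the labels. The labels do not say whether the 3 libraries of a group came from separate cultures. The p-values rest on the spread between libraries of the same condition, estimated over all 48 libraries of the series. This spread may be partly technical. The groups used for reference were E-CAD+ 3NG- cells (CD44-, ICAM1+, and *Nanog*-GFP negative) of both cassettes after the same treatment, MKOS and OKMS MEFs, WT MEFs, and TNG, TNG MKOS, and TNG OKMS ESCs.

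In reprogramming, fibroblasts switch off mesenchymal and matrix genes, form epithelial junctions, and only later express the endogenous pluripotency network. *Pou5f1* and *Sox2* bind pluripotency enhancers together, *Klf4* acts on both epithelial and pluripotency genes, and *Myc* promotes growth and metabolism. CD44 is a hyaluronan receptor that is lost from the cell surface, and ICAM1 is an adhesion protein that the fibroblasts lose and reprogramming cells later regain.

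The cassettes also differ in *Klf4* itself. The study describes the *Klf4* of OKMS as a short form that lacks the N-terminal residues of the long form, and that of MKOS as the long form. In the mouse transcripts of GENCODE vM1 (NCBIM37, mm9), *Klf4* lies on the minus strand of chromosome 4. The longer transcript starts translation in exon 1, at 55544743, and the shorter in exon 2, at 55544600. Their coding sequences have 1452 and 1425 bases, and beyond the first 27 bases of the longer one they are identical. These bases encode 9 codons and are shown in capitals below, followed in lower case by the start codon of the short form.

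Klf4 long form, start of coding sequence: ATGAGGCAGCCACCTGGCGAGTCTGACatg

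The 3 MKOS libraries had 9802465, 6774395, and 7380254 reads on transcripts, and the 3 OKMS libraries had 5867291, 3102135, and 14174725. Between 12089 and 14885 transcripts had a read in a library. A level of 1 CPM (read count scaled to the library total of reads on transcripts) is thus close to the smallest level that 3 reads could show in the shallowest library, 0.967 CPM. These floors cover counting error only, since copies made by PCR were counted separately. OKMS replicate 3 stood apart from replicates 1 and 2. In OKMS replicate 3, 529 of the 15630 genes tested were over 4-fold away from the mean of the other replicates of the group. The same count was 155 and 369 in OKMS replicates 1 and 2. In MKOS it was 78, 56, and 246 in replicates 1, 2, and 3, so MKOS replicate 3 stood apart in its group as well. OKMS replicate 3 is also the deepest library. Both replicates 3 are among the libraries that the study's averages leave out. Counts that rest on OKMS replicate 3 are therefore given with and without it.

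The genes behind the sort were measured first. *Cdh1*, encoding E-cadherin, had 158, 161, and 156 CPM in MKOS and 159, 182, and 152 CPM in OKMS. The groups overlapped, and the log2 fold change of MKOS over OKMS was -0.14 ± 0.39 (SE, adjusted p = 0.913). *Cdh1* was at 0.189 CPM in WT MEFs and at 167 CPM in TNG MKOS ESCs. *Cd44* had 41.1, 43.8, and 28.3 CPM in MKOS and 36.8, 75.8, and 12.5 CPM in OKMS (-0.16 ± 0.70, adjusted p = 0.959), with the highest and the lowest value both in OKMS. *Nanog* transcript was present in all 6 *Nanog*-GFP negative libraries, at 16.2, 18.5, and 45.8 CPM in MKOS and 36.0, 24.8, and 52.8 CPM in OKMS (-0.63 ± 0.46, adjusted p = 0.481).

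*Icam1* was low in both groups, with 3.98, 0, and 4.34 CPM in MKOS and 0, 0, and 0.141 CPM in OKMS. Pooled over the libraries this is a ratio of 34.3 on 2 OKMS reads (95% counting interval 9.15 to 289), and the gene was called higher in MKOS (adjusted p = 0.0053), but not without replicate 3 of both groups or without the 7 sorted libraries that the averages of the study leave out. It did not pass the filter on low counts when the 6 libraries were fitted alone. E-CAD+ 3NG- cells, sorted for ICAM1, had 16.7 CPM in MKOS and 13.9 CPM in OKMS.

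Of the 4 cassette factors, *Pou5f1* was called. It had 857, 796, and 765 CPM in MKOS and 174, 144, and 333 CPM in OKMS. The groups did not overlap, and the log2 fold change was 1.77 ± 0.35 (adjusted p = 0.00101). *Pou5f1* was at 988 CPM in TNG MKOS ESCs and at 1153 CPM in TNG OKMS ESCs. *Sox2* had 43.4, 28.0, and 35.5 CPM in MKOS and 31.7, 29.0, and 57.6 CPM in OKMS (adjusted p = 0.753). *Klf4* had 28.7, 32.0, and 30.2 CPM in MKOS and 38.0, 55.4, and 14.2 CPM in OKMS (-0.28 ± 0.37, adjusted p = 0.738). *Myc* had 42.2, 47.2, and 41.9 CPM in MKOS and 59.5, 72.9, and 25.3 CPM in OKMS (adjusted p = 0.756). For *Klf4* and *Myc*, OKMS replicate 3 was the lowest of the 6 libraries and OKMS replicate 2 the highest. STRT reads the 5′ end of a transcript, and the 5′ end of the cassette transcript is not that of the 4 native genes, so these values need not include the transgene. *Sp3*, the targeted gene, had 19.6, 19, and 20.6 CPM in MKOS and 27.4, 23.5, and 20.8 CPM in OKMS (-0.37 ± 0.31, adjusted p = 0.562).

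Across the transcriptome, 793 of 15630 genes were called (edgeR's quasi-likelihood test, Benjamini-Hochberg adjusted p of at most 0.05), which is 5.07%. Of these, 444 were higher in MKOS (2.84%) and 349 were higher in OKMS (2.23%). The median size of a called change was 2.15 on the log2 scale among genes higher in MKOS and 2.14 among those higher in OKMS. An unadjusted p under 0.05 was found for 2957 genes (18.9%), and the median log2 fold change of all genes was 0.00. The libraries of the 2 groups did not overlap for 3905 genes (25% of those tested), with MKOS higher for 2644 of them (16.9%) and OKMS higher for 1261 (8.07%). When OKMS replicate 3 was left out, 505 genes were called, 334 higher in MKOS and 171 higher in OKMS. Of the original calls, 57.0% of those higher in MKOS and 47.6% of those higher in OKMS remained, and none turned to the opposite call. Without MKOS replicate 1 or 2, 454 and 456 genes were called.

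**Figure D1:**
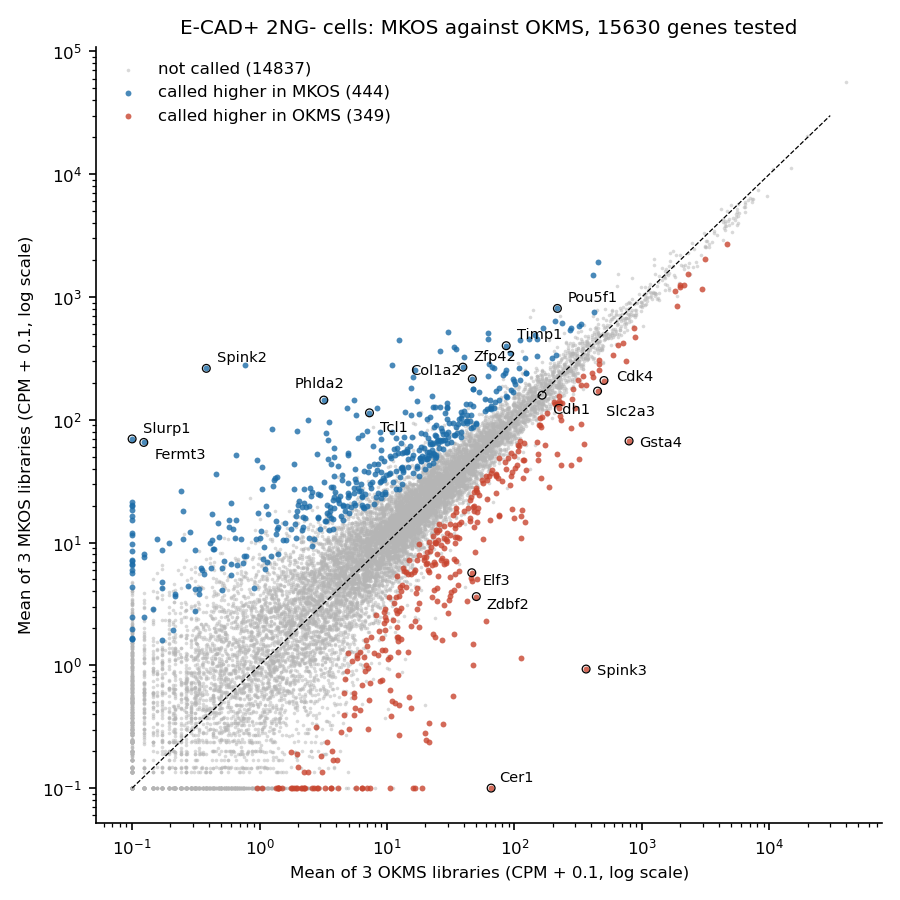
Mean level of each tested gene in the 3 OKMS libraries (x axis) and the 3 MKOS libraries (y axis), in CPM plus 0.1 on log scales, with the 444 genes called higher in MKOS in blue, the 349 called higher in OKMS in red and the rest in grey. *Pou5f1*, *Timp1*, and *Zfp42* lie above the diagonal, *Gsta4*, *Elf3*, and *Zdbf2* below it, and *Cdh1* on it; points on the left and lower edges are genes with no read in 1 group.

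Leading genes were those with the largest changes among the called genes, with libraries that did not overlap and a mean of at least 10 CPM in the higher group. This ranking favours genes with few or no reads in the other cassette. Among all calls, 23 of the 444 genes higher in MKOS and 36 of the 349 higher in OKMS had no read in the other group. Of the 15 leading genes higher in MKOS, 9 had no read in any OKMS library, and no OKMS library exceeded 1.69 CPM for any of the 15. *Slurp1*, a secreted Ly6-family protein of keratinocytes, had 120, 72.0, and 17.2 CPM in MKOS and no read in OKMS, at least 537-fold higher against the level that 3 reads over the OKMS group would give. *Spink2*, a serine protease inhibitor, had 296, 285, and 206 CPM in MKOS and 0, 0, and 0.847 CPM in OKMS (log2 fold change 8.99 ± 0.92, adjusted p = 1.78e-08). The uncharacterised X-linked gene *4930550L24Rik* had 294, 309, and 228 CPM in MKOS and 0, 0.322, and 1.69 CPM in OKMS (8.08 ± 0.79, adjusted p = 3.16e-08). These values put both genes among the better expressed transcripts of MKOS cells. In OKMS, both exceeded the level that 3 reads would give in replicate 3 alone, where that level was 0.212 CPM.

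*Fermt3*, encoding the integrin activator kindlin-3, had 68.6, 61.9, and 65.3 CPM in MKOS and 1 read in the OKMS group. *Scnn1b*, a subunit of the epithelial sodium channel, had 19.2, 9.89, and 5.42 CPM against no read, at least 88.7-fold higher, and was not called without OKMS replicate 1 or 3. *Tie1*, a receptor kinase of endothelium, had 24.1, 34.4, and 20.1 CPM in MKOS and at most 0.423 CPM in OKMS. *Klk13*, a kallikrein-family serine protease, had 15.0, 17.1, and 21.7 CPM in MKOS and at most 0.282 CPM in OKMS, but was not called when any single OKMS library was left out. Other leading genes were *2310042E22Rik*, *A730037C10Rik*, *AU021092*, *Dnahc17* (an axonemal dynein), *4732456N10Rik*, *Tesc* (a calcium-binding protein), and *Slc16a5* (a monocarboxylate transporter family member). All 15 had means under 10 CPM in WT, MKOS, and OKMS MEFs and in the 3 TNG ESC lines, and all 15 also had a higher mean in MKOS than in OKMS 3NG- cells. Without OKMS replicate 3, 11 of the 15 were called, and DESeq2's Wald test called 9.

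The 15 leading genes higher in OKMS included genes led by OKMS replicate 1 or 2 and genes led by replicate 3. Among the first, *Pllp*, encoding the membrane protein plasmolipin, had 33.4, 40.6, and 7.41 CPM in OKMS and at most 0.408 CPM in MKOS (log2 fold change -6.74 ± 1.10, adjusted p = 0.000107). *Gsta3*, a glutathione transferase, had 65.8, 45.8, and 29.6 CPM in OKMS and 0, 1.48, and 1.22 CPM in MKOS (-5.83 ± 1.11, adjusted p = 0.000828). *Prom2*, encoding prominin-2 of epithelial cell protrusions, had 28.6, 29.3, and 5.29 CPM in OKMS and at most 0.590 CPM in MKOS. *Tac2*, encoding the neurokinin B precursor, had 44.7, 17.4, and 1.83 CPM in OKMS and at most 0.408 CPM in MKOS. *1110032A04Rik* had 32.4, 21.3, and 2.40 CPM in OKMS and no read in MKOS, at least 149-fold higher. These 5 genes were lowest in replicate 3 among the OKMS libraries.

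In the second set, OKMS replicate 3 was far above its fellows. *Spink3*, a trypsin inhibitor, had 21.8 and 15.5 CPM in OKMS replicates 1 and 2 and 1056 CPM in replicate 3, against 1.02, 1.48, and 0 CPM in MKOS. *Car4*, a membrane-bound carbonic anhydrase, had 10.6, 8.06, and 317 CPM in OKMS and 2.55, 0.590, and 0 CPM in MKOS. *Eomes*, a T-box factor of the primitive streak and trophoblast, had 3.41, 2.26, and 54.6 CPM in OKMS and at most 0.306 CPM in MKOS. *Hesx1*, a homeobox repressor of the anterior embryo, had 0.682, 1.61, and 45.1 CPM in OKMS and no read in MKOS. *Car14* had 0.682, 0.645, and 58.2 CPM in OKMS and at most 0.542 CPM in MKOS. Without OKMS replicate 3, *Spink3* was still called, whereas *Car4*, *Eomes*, *Hesx1*, and *Car14* were not. *Wnt8a*, a WNT ligand of early embryos, had 9.89, 11.9, and 15.2 CPM in OKMS and 0.510, 0, and 0 CPM in MKOS. It was highest in OKMS replicate 3, and was not called without that library or without MKOS replicate 2 or 3. *Gm9*, *Acsbg1* (a lipid-activating enzyme), *Rab15* (a small GTPase), and *2010001M09Rik* complete the list. In all, 10 of the 15 were called without OKMS replicate 3 and 8 without replicate 3 of both groups, and DESeq2's Wald test called 14. As with the MKOS genes, most had means under 10 CPM in the MEFs and TNG ESCs, 13 of the 15. All 15 also had a higher mean in OKMS than in MKOS 3NG- cells.

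**Figure D2:**
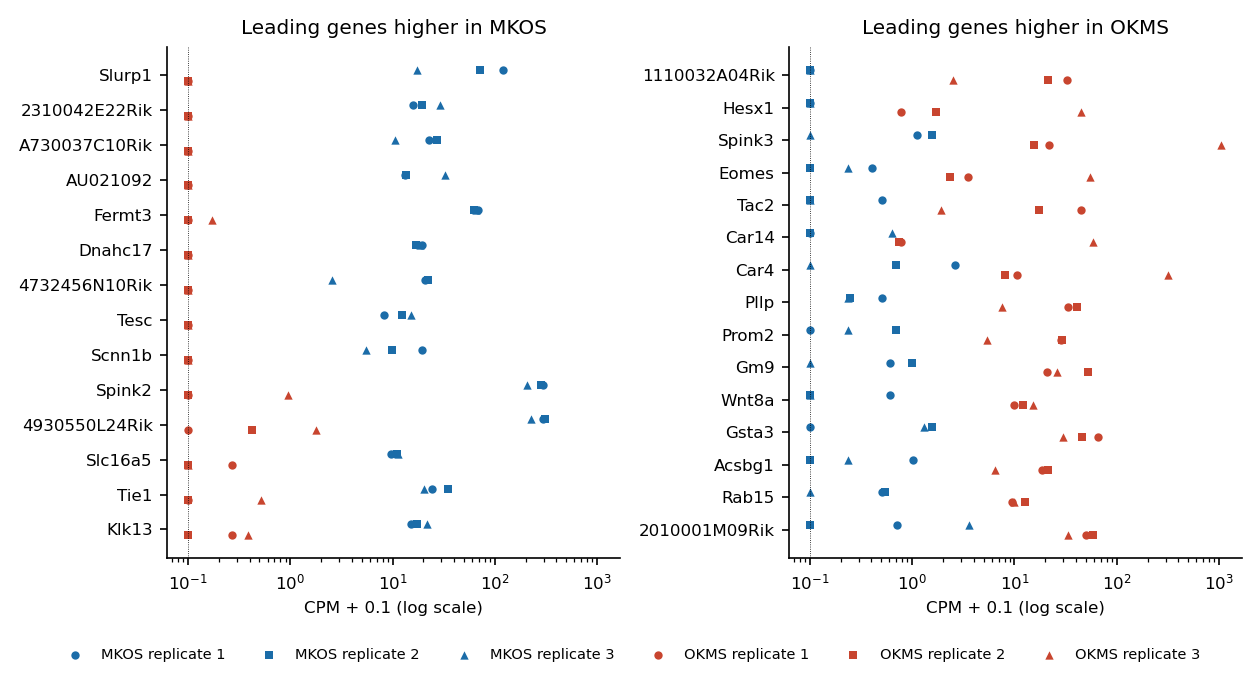
CPM plus 0.1 (x axis, log scale) in each of the 6 libraries for the leading genes reported in each direction, MKOS in blue and OKMS in red, with circles, squares and triangles for replicates 1, 2 and 3; the dotted line marks no read. *Slurp1* has no read in OKMS, and for *Spink3*, *Car4*, and *Eomes* the OKMS replicate 3 triangle lies far to the right of the other OKMS libraries.

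Since STRT reads begin near the transcript's start, the promoters of the leading genes were inspected. RefSeq promoter sequences (GRCm38.p6, 250 bases before to 50 bases after the start) matched 18 of the 30 leading genes. They were searched on both strands for the KLF element GGGTGTGG, the POU octamer ATGCAAAT, the E-box CACGTG of the MYC family, and the TATA element TATAAA. A match was found in 4 of the 18 genes, and these 4 promoters are printed 5′ to 3′ on the gene's own strand, with the match in capitals.

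Tie1 promoter, chr4:118489800-118490099, minus strand: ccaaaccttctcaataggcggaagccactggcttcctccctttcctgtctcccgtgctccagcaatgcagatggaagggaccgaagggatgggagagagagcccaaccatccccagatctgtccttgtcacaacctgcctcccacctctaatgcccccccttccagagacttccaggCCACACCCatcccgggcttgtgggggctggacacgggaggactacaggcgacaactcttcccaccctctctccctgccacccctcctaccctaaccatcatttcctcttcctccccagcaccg

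Acsbg1 promoter, chr9:54661836-54662135, minus strand: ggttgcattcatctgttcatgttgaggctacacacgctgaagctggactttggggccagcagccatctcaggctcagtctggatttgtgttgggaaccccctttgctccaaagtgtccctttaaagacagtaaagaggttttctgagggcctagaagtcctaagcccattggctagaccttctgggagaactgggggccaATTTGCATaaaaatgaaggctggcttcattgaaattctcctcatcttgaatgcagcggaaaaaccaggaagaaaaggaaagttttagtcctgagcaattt

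Car4 promoter, chr11:84957504-84957803, plus strand: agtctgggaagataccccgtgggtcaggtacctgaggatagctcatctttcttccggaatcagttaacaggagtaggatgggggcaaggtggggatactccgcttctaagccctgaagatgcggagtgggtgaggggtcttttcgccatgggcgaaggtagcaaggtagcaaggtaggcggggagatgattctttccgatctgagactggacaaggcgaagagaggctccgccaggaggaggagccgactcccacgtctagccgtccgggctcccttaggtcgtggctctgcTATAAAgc

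Hesx1 promoter, chr14:27000112-27000411, plus strand: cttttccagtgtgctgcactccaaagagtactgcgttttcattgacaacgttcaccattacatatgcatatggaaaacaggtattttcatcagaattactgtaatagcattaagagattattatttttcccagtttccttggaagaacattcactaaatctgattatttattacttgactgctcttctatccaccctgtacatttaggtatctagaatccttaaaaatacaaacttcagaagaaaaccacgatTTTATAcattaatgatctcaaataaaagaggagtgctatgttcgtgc

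The capitals are the KLF element in *Tie1*, the octamer in *Acsbg1*, and the letters TATAAA in *Car4* and *Hesx1*. They lie on the opposite strand in *Tie1*, *Acsbg1*, and *Hesx1*. In *Car4* and *Hesx1* the match falls within the 50 bases after the start, and not before it. Over all called genes with a promoter in the table, the KLF element was present for 4.08% of the 319 higher in MKOS, 5.45% of the 257 higher in OKMS, and 4.69% of the 10799 tested. The octamer was present for 3.45%, 2.33%, and 1.75%, the E-box for 10.3%, 15.2%, and 11.5%, and TATAAA for 10.7%, 9.73%, and 9.45%, in the same order. These shares describe the letters in the windows and were not tested.

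Pluripotency transcription factors were called in both directions. Of 26 tested, 6 were called higher in MKOS (*Zfp42*, *Zfp57*, *Esrrb*, *Tbx3*, *Prdm14*, and *Zfp296*) and 2 higher in OKMS, among them *Nr0b1*, with a list median of 0.17 on the log2 scale. The 6 became 3 without OKMS replicate 2, and the 2 became 0 without MKOS replicate 2 and 1 without MKOS replicate 1, OKMS replicate 1, or OKMS replicate 3. *Zfp42*, the ESC marker also known as Rex1, had 195, 203, and 406 CPM in MKOS and 21.1, 21.0, and 75.8 CPM in OKMS (2.60 ± 0.43, adjusted p = 0.000123). *Esrrb*, an orphan nuclear receptor of the naive network, had 49.0, 53.7, and 69.4 CPM in MKOS and 14.1, 13.9, and 15.0 CPM in OKMS (1.90 ± 0.38, adjusted p = 0.00146). *Zfp57*, which maintains imprints, had 60.4, 67.5, and 94.8 CPM in MKOS and 23.2, 27.1, and 22.4 CPM in OKMS (1.53 ± 0.29, adjusted p = 0.000729). For these 3 genes every MKOS library was above every OKMS library, as for 432 of the 444 genes called higher in MKOS.

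In the other direction, *Nr0b1* (Dax1), an X-linked nuclear receptor, had 2.65, 5.46, and 12.2 CPM in MKOS and 21.6, 24.8, and 14.9 CPM in OKMS. *Sall4*, *Tfcp2l1*, *Klf2*, and *Klf5* were not called, with adjusted p-values of 0.95, 0.154, 0.629, and 1.

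Other pluripotency genes went both ways, with 4 of 36 called higher in MKOS and 3 higher in OKMS. *Tcl1*, a coactivator of AKT, had 90.5, 113, and 138 CPM in MKOS and 3.75, 5.80, and 12 CPM in OKMS (3.78 ± 0.55, adjusted p = 1.54e-05). *Gjb5*, a connexin, had 72.7, 50.5, and 90.8 CPM in MKOS and 4.43, 6.77, and 6.21 CPM in OKMS (3.53 ± 0.63, adjusted p = 0.000337). *Eras*, a Ras-like gene of ESCs, had 0.816, 2.07, and 6.77 CPM in MKOS and 17.7, 7.41, and 101 CPM in OKMS (-3.92 ± 0.68, adjusted p = 0.000241). *Slc2a3*, a glucose transporter, had 132, 155, and 226 CPM in MKOS and 385, 507, and 453 CPM in OKMS (-1.48 ± 0.27, adjusted p = 0.000376). *Dppa5a*, an abundant ESC transcript, was not called (adjusted p = 0.476), with 692 and 500.3 CPM in OKMS replicates 1 and 2, 2554 CPM in OKMS replicate 3, and 1720 to 2513 CPM in MKOS. Leaving out OKMS replicate 1 gave 2 higher in MKOS and 4 higher in OKMS, leaving out OKMS replicate 2 gave 4 and 5, and leaving out OKMS replicate 3 gave 7 and 2.

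Genes of simple and of stratified epithelia were examined as separate lists, and the lists were not tested against each other. Of 48 general epithelial genes tested, 6 were called higher in OKMS and 0 were called higher in MKOS, with a list median of -0.14. The MKOS libraries lay above all OKMS libraries for 7 of the 48 and below them all for 9, against 16.9% and 8.07% of all genes tested. The 6 became 2 without MKOS replicate 2 and 3 without OKMS replicate 2, and with no filter on low counts 3 were called higher in MKOS. *Elf3*, an epithelial ETS factor, had 6.32, 6.20, and 4.20 CPM in MKOS and 46.9, 44.5, and 47.1 CPM in OKMS (-3.14 ± 0.57, adjusted p = 0.000394). *Cldn6*, a tight-junction claudin, had 54.0, 56.4, and 16.8 CPM in MKOS and 217, 185, and 287 CPM in OKMS (-2.55 ± 0.55, adjusted p = 0.00299). *Rab25* and *Prss8*, a trafficking GTPase and a membrane protease of epithelia, and *Pkp2* and *Grhl2*, a desmosome component and an epithelial transcription factor, were also higher in OKMS. *Epcam* (adjusted p = 0.34) and *Krt8* (adjusted p = 0.387) were not called.

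Of 28 genes of stratified epithelium, 3 were called, all higher in MKOS, with a list median of 1.25 (1.16 with genes unread in 1 group set at their bound). *Klk10*, a kallikrein of skin, had 77.8, 56.4, and 110 CPM in MKOS and 2.05, 3.55, and 0 CPM in OKMS (5.63 ± 1.10, adjusted p = 0.00125). *Lgals7*, the keratinocyte galectin, had 375, 365, and 796 CPM in MKOS and 61.9, 96.4, and 28.4 CPM in OKMS (3.00 ± 0.60, adjusted p = 0.00127). *Sbsn* (suprabasin) had 71.8, 92.6, and 73.0 CPM in MKOS and 7.09 to 10.6 CPM in OKMS, although it was not called when any single OKMS library was left out, or MKOS replicate 1 or 2. For all 3 genes every MKOS library exceeded every OKMS library, which held for 432 of the 444 genes called higher in MKOS.

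Genes of the fibroblast matrix were called on the MKOS side. Of 38 tested, 18 were called higher in MKOS and 0 higher in OKMS, with a list median of 1.72. For 23 of the 38 the MKOS libraries lay above all OKMS libraries, against 16.9% of all genes tested. *Timp1*, a metalloprotease inhibitor, had 444, 408, and 350 CPM in MKOS and 78.4, 109, and 70.3 CPM in OKMS (2.15 ± 0.28, adjusted p = 1.94e-06). The collagen gene *Col5a2* had 192, 81.6, and 53.4 CPM in MKOS and 11.8, 13.9, and 20.6 CPM in OKMS (2.70 ± 0.49, adjusted p = 0.000394). *Col1a2*, a chain of type I collagen, had 334, 146, and 165 CPM in MKOS and 22.2, 51.9, and 65.7 CPM in OKMS (2.11 ± 0.45, adjusted p = 0.00271). *Mfap5*, a microfibril protein, had 52.7, 49.3, and 57.7 CPM in MKOS and 1.70, 4.19, and 8.68 CPM in OKMS (3.27 ± 0.70, adjusted p = 0.00271). In OKMS and WT MEFs *Col1a2* was at 855 ± 186 and 1169 ± 207 CPM (SD, n = 2) and in TNG MKOS ESCs at 0.219 CPM. Both sorted groups were below these MEFs for *Col1a2*. Between MKOS and OKMS MEFs the log2 fold changes were -0.23 for *Timp1*, 0.32 for *Col5a2*, 0.65 for *Col1a2*, and 0.71 for *Mfap5*, with 0 of them called higher in MKOS MEFs. *Mfap5* in MEFs was at 32.5 CPM (WT) and 30.1 CPM (MKOS), below its level in MKOS 2NG- cells.

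In sorted bulk RNA, fewer cells of a type and less RNA per cell cannot be told apart. The 11 fibroblast markers, 5 of them called higher in MKOS, summed to 446 to 843 CPM in MKOS, 77.4 to 294 CPM in OKMS, and 4030 to 4862 CPM in WT MEFs, and none was at 0 in all libraries of a sorted group. They summed to 5676 to 5916 CPM in MKOS MEFs and 3193 to 4093 CPM in OKMS MEFs. A further gene with a high level in WT MEFs and almost none in TNG ESCs was higher in MKOS. *Hprt*, an X-linked purine salvage enzyme, was at 194 CPM in WT MEFs, at 0 and 0.0871 CPM in the TNG ESCs, and at 33.6, 16.5, and 7.72 CPM in MKOS against 1.87, 0.645, and 3.67 CPM in OKMS 2NG- cells (2.90 ± 0.59, adjusted p = 0.00158). These MKOS values are 17.3%, 8.51%, and 3.97% of the WT MEF mean, and MKOS and OKMS MEFs were at 3.74 and 22.3 CPM. *Xist*, the X-inactivation RNA, was at 179 CPM in WT MEFs and at most 0.591 CPM in TNG ESCs, and had 35.1, 10.6, and 8.54 CPM in MKOS and 9.71, 8.70, and 10.3 CPM in OKMS (adjusted p = 0.519). MKOS replicate 1 was the highest for *Hprt*, *Xist*, *Col1a2*, and *Col5a2* alike. Without it, 7 of the matrix genes were called in place of 18. Without OKMS replicate 1 or 2, 8 and 11 were called, and without OKMS replicate 3, 16 were. The sort took E-CAD+ cells without CD44, and *Cdh1* was at 0.189 CPM in WT MEFs. The share of WT cells left after the sort was not measured here. The part of WT cells in the matrix result was not tested.

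Of 29 mesenchymal genes, 4 were higher in MKOS (*Snai1*, *Itgav*, *Sparc*, and *Cdh11*) and 0 were called higher in OKMS, with a median of 1.17. *Snai1*, the repressor of E-cadherin, was low in both, at 5.92, 7.68, and 5.83 CPM in MKOS and 0.511, 0, and 1.20 CPM in OKMS. *Sparc*, a secreted matrix glycoprotein, had 820, 420, and 448 CPM in MKOS and 152, 147, and 205 CPM in OKMS. *Vim* (adjusted p = 0.189) and *Fn1* (adjusted p = 0.0695) were not called. The 4 calls became 0 without OKMS replicate 1, 1 without MKOS replicate 1, and 2 without OKMS replicate 2.

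Of 52 actin cytoskeleton genes, a list that includes genes the study picked from these libraries, 12 were called higher in MKOS and 0 higher in OKMS, with a median of 0.60, and 6 were called without MKOS replicate 1 and 7 without OKMS replicate 2. *Vasp*, an actin filament elongation factor, had 98.5, 97.7, and 83.6 CPM in MKOS and 33.7, 31.9, and 32.3 CPM in OKMS (1.42 ± 0.22, adjusted p = 5.11e-05). *Pdlim5* and *Myo1c*, an actin-bound scaffold and a motor, had log2 fold changes of 1.88 ± 0.30 and 1.89 ± 0.33. The Hox genes, which keep the body position of the source fibroblast, had 0 of 34 called in either direction (median 1.54, or 1.21 at the bound).

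**Figure D3:**
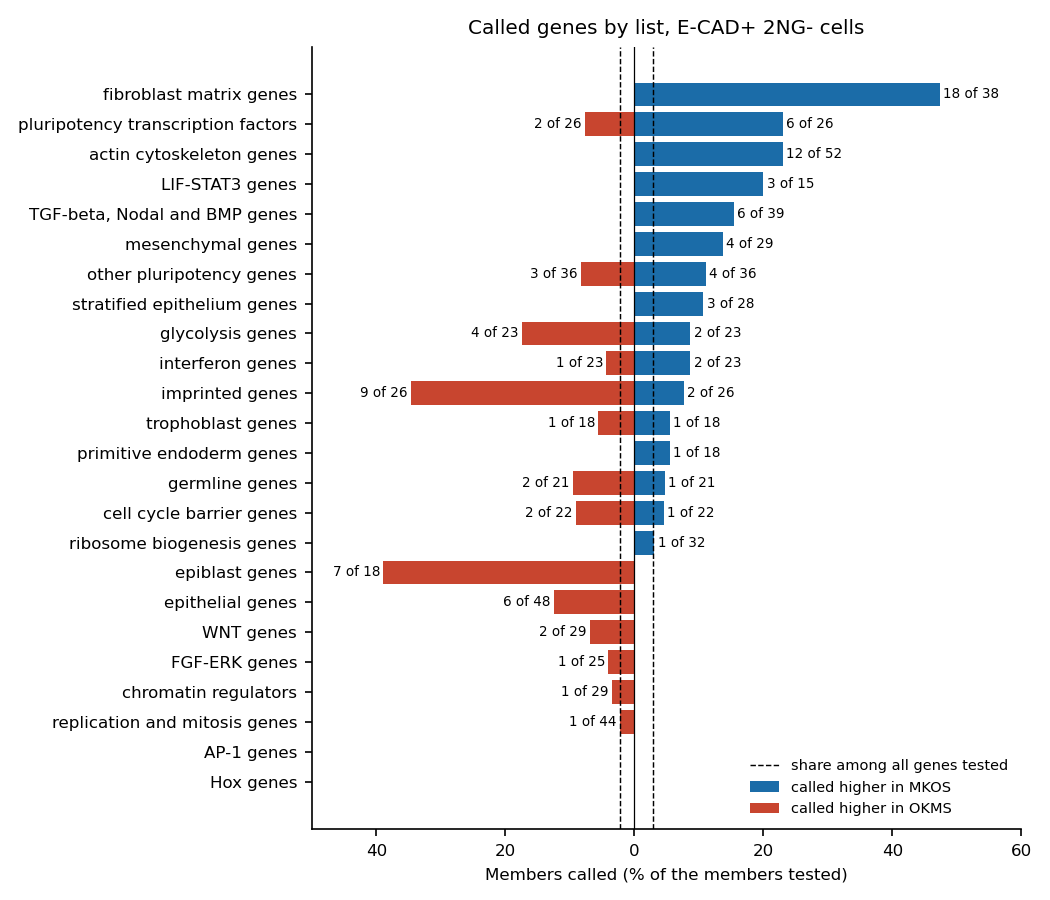
Share of each list's tested members that were called higher in MKOS (blue, right) or in OKMS (red, left), with the number called at each bar; dashed lines mark the 2.84% and 2.23% of all tested genes called in each direction. The longest bars are the fibroblast matrix genes on the MKOS side (18 of 38) and the epiblast (7 of 18) and imprinted genes (9 of 26) on the OKMS side.

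Components of the TGF-beta, Nodal, and BMP pathways, which steer cells between mesenchymal and epithelial states, had 6 of 39 members higher in MKOS and 0 called higher in OKMS (median 0.69). Among ligands, *Bmp4* had 15.1, 4.43, and 11.9 CPM in MKOS and 0.682, 0, and 1.83 CPM in OKMS (3.15 ± 0.61, adjusted p = 0.00101), and *Tgfb3* was also called. Among targets, *Ctgf* was called. The inhibitory *Smad7* had 27.2, 20.8, and 14.4 CPM in MKOS and 3.24, 7.09, and 5.93 CPM in OKMS. *Bmp1*, a procollagen protease, was also called. Without MKOS replicate 1, 3 members were called.

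The LIF pathway keeps mouse ESCs undifferentiated through the receptor subunit gp130, JAK kinases, and STAT3. Its members *Il6st* (gp130), *Jak1*, and *Stat3* were higher in MKOS, 3 of 15 tested. *Il6st* had 15.9, 20.2, and 25.7 CPM in MKOS and 5.62, 7.74, and 9.88 CPM in OKMS (1.28 ± 0.34, adjusted p = 0.0176). *Jak1* and *Stat3* had log2 fold changes of 1.13 ± 0.31 and 1.16 ± 0.35. These 3 genes were also transcribed at 69.1 to 170 CPM in MEFs, above both sorted groups. The 3 calls became 0 without OKMS replicate 1 and 1 without MKOS replicate 1 or 2 or OKMS replicate 2 or 3, and were 1 in the 6 libraries alone and 0 with a replicate block there. Of 29 WNT genes, *Tcf7l1*, a repressor of WNT targets, and the receptor *Fzd7* were higher in OKMS, with 1 call without MKOS replicate 1 or 2 or OKMS replicate 3, and 4 without OKMS replicate 2. Of 25 FGF-ERK genes only *Fgf5* was called, and not without any 1 of the MKOS libraries or OKMS replicate 3, and of 12 AP-1 genes 0 were.

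Imprinted genes, which are transcribed from 1 parental allele, stood on the OKMS side. Of 26 tested, 9 were higher in OKMS and 2 higher in MKOS, with a median of -1.24. *Zdbf2* had 3.37, 0.443, and 6.77 CPM in MKOS and 53.5, 63.8, and 32.9 CPM in OKMS (-3.87 ± 0.51, adjusted p = 1.94e-06). *Plagl1*, a zinc finger regulator of growth, had no read in MKOS and 4.60, 3.22, and 0.282 CPM in OKMS, at least 21.6-fold higher. *Nnat* (neuronatin) had 0.714, 0, and 0.406 CPM in MKOS and 6.82, 2.58, and 27.5 CPM in OKMS (-5.07 ± 0.95). *Mest*, *Kcnq1ot1*, *Peg3*, *Igf2r*, *Usp29*, and *H19* were the other calls, of which *Usp29* had reads in OKMS replicate 3 alone.

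In MKOS the imprinted genes *Phlda2* and *Grb10*, both restrainers of growth, were higher. *Phlda2* had 150, 182, and 102 CPM in MKOS and 1.19, 2.58, and 5.50 CPM in OKMS (5.30 ± 0.83, adjusted p = 5.59e-05), and it was at 0.436 CPM or less in MEFs. *Grb10* had 124, 115, and 74.5 CPM in MKOS and 16.5, 26.4, and 22.4 CPM in OKMS. *H19*, *Nnat*, and *Plagl1* already differed between the MEFs of the 2 lines, at 32.4, 1.38, and 0.256 CPM in MKOS MEFs against 3142, 87.2, and 66.6 CPM in OKMS MEFs (adjusted p = 1.85e-07 for *H19*). *Mest* was at 106 and 229 CPM in MKOS and OKMS MEFs (adjusted p = 0.75), and *Zdbf2* at 26.9 and 25.5 CPM. Without OKMS replicate 3, 4 imprinted genes were called higher in OKMS and 3 higher in MKOS, and without MKOS replicate 1 or 2, 5 were called higher in OKMS.

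Epiblast genes, which mark the cells that follow the naive state in the embryo, were called only on the OKMS side, 7 of 18, with a median of -2.55, but this rested largely on 1 library. *Cer1*, an inhibitor of Nodal and BMP, had 196 CPM in OKMS replicate 3 and no read in the other 5 libraries. *Fgf5* had 3.58, 0, and 45.6 CPM in OKMS and no read in MKOS. *Dnmt3b*, a DNA methyltransferase, had 31.5, 33.5, and 232 CPM in OKMS and 17.1, 20.4, and 10.0 CPM in MKOS. *Pim2*, a growth kinase, had 21.1, 30.9, and 85.7 CPM in OKMS and 4.49, 6.94, and 2.85 CPM in MKOS. Without OKMS replicate 3, 2 of the 18 were called, without MKOS replicate 1 or 2, 4 and 3, and without replicate 3 of both groups, 0.

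Of 23 glycolysis genes, 2 were higher in MKOS and 4 higher in OKMS, with a median of -0.46. The 4 became 1 without MKOS replicate 2 and 2 without MKOS replicate 1 or OKMS replicate 3, and the 2 became 1 without any library other than MKOS replicate 2. *Hk1*, the housekeeping hexokinase, had 52.8, 45.0, and 62.5 CPM in MKOS and 13.1, 12.2, and 11.1 CPM in OKMS (2.05 ± 0.37, adjusted p = 0.00043), whereas *Hk2* did not pass (adjusted p = 0.736). *Ldhb*, a lactate dehydrogenase, had 23.2, 12.5, and 19 CPM in MKOS and 67.8, 68.3, and 205 CPM in OKMS (-2.77 ± 0.51, adjusted p = 0.000555). Of the cell-cycle regulators, *Cdk4* had 153, 214, and 258 CPM in MKOS and 455, 444, and 611 CPM in OKMS (-1.38 ± 0.26, adjusted p = 0.000672), and *Ccne1* (cyclin E1) had 11.5, 16.4, and 14.4 CPM in MKOS and 38.0, 33.8, and 37.5 CPM in OKMS (-1.47 ± 0.26, adjusted p = 0.000318). *Ccnd3* (cyclin D3) went the other way, at 51.0, 48.4, and 59.2 CPM in MKOS and 22.3, 24.2, and 23.0 CPM in OKMS (1.10 ± 0.26, adjusted p = 0.00771). *Ccne1* was the only one of 44 replication and mitosis genes called, against 3 without MKOS replicate 3.

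Chromatin regulators (1 of 29 called, *Dnmt3b*), ribosome biogenesis genes (1 of 32, *Rrp9*), and lineage lists for primitive endoderm (1 of 18, *Sparc*) and trophoblast (*Phlda2* and *Eomes*, 1 of 18 in each direction) had few calls. *Dnmt3b* was not called without OKMS replicate 3, and *Rrp9*, *Sparc*, and *Eomes* were each lost without at least 3 of the 6 libraries taken 1 at a time. Among 21 germline genes, *Piwil2* was higher in MKOS, although not without MKOS replicate 1 or 3 or OKMS replicate 1 or 2, and *Dmc1* and *Sycp3*, which act in meiosis, were higher in OKMS, the latter pair not without OKMS replicate 3. Among 23 interferon genes, *B2m*, the light chain of MHC class I, had 780, 655, and 466 CPM in MKOS and 195, 242, and 185 CPM in OKMS, *Oas1a* was also higher in MKOS, and *Ifitm1* was higher in OKMS, with the opposite sign without OKMS replicate 3. Of the *B2m* and *Oas1a* calls, 0 were kept without OKMS replicate 1. Neural markers summed to 61.4 to 197 CPM in MKOS and 18.5 to 38.2 CPM in OKMS, with *Tubb3* called higher in MKOS and *Sox1* higher in OKMS, and endothelial markers to 24.1 to 39.3 CPM and 5.36 to 18.4 CPM, with *Tie1* called. For both sums the groups did not overlap, and their part in the results was not tested. Markers of blood cells summed to 159 to 1526 CPM in MKOS and 128 to 304 CPM in OKMS, with 0 of 6 called. The pluripotent markers summed to 2206 to 3408 CPM in MKOS and to 729, 922, and 3018 CPM in OKMS, against 11057 CPM or more in TNG ESCs.

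To place the called genes on the way from MEFs to ESCs, TNG MKOS and TNG OKMS ESCs were compared with MKOS and OKMS MEFs, which share no library with the sorted cells. Of all genes tested, 50.9% were called, and 4059 (26%) were higher in ESCs and 3902 (25%) higher in MEFs. Of the 444 genes higher in MKOS, 109 (24.5%) were ESC genes and 218 (49.1%) were MEF genes, and 117 were neither. Of the 349 higher in OKMS, 160 (45.8%) were ESC genes and 67 (19.2%) were MEF genes. Genes at over 2-fold the mean of both end points, such as *Klk10*, *Slurp1*, and *Spink2*, made up 27.7% of those higher in MKOS, 17.8% of those higher in OKMS, and 10.3% of all tested. These counts moved when single libraries were left out, and the totals of called genes moved with them. The 218 of 444 became 117 of 266, 138 of 278, and 127 of 265 without MKOS replicate 1, MKOS replicate 2, and OKMS replicate 1. The 160 of 349 became 75 of 188, 76 of 178, and 75 of 171 without MKOS replicate 1, MKOS replicate 2, and OKMS replicate 3. The 109 of 444 became 69 of 336, 64 of 265, and 71 of 301 without MKOS replicate 3, OKMS replicate 1, and OKMS replicate 2. The 67 of 349 became 39 of 178 and 36 of 171 without MKOS replicate 2 and OKMS replicate 3.

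**Figure D4:**
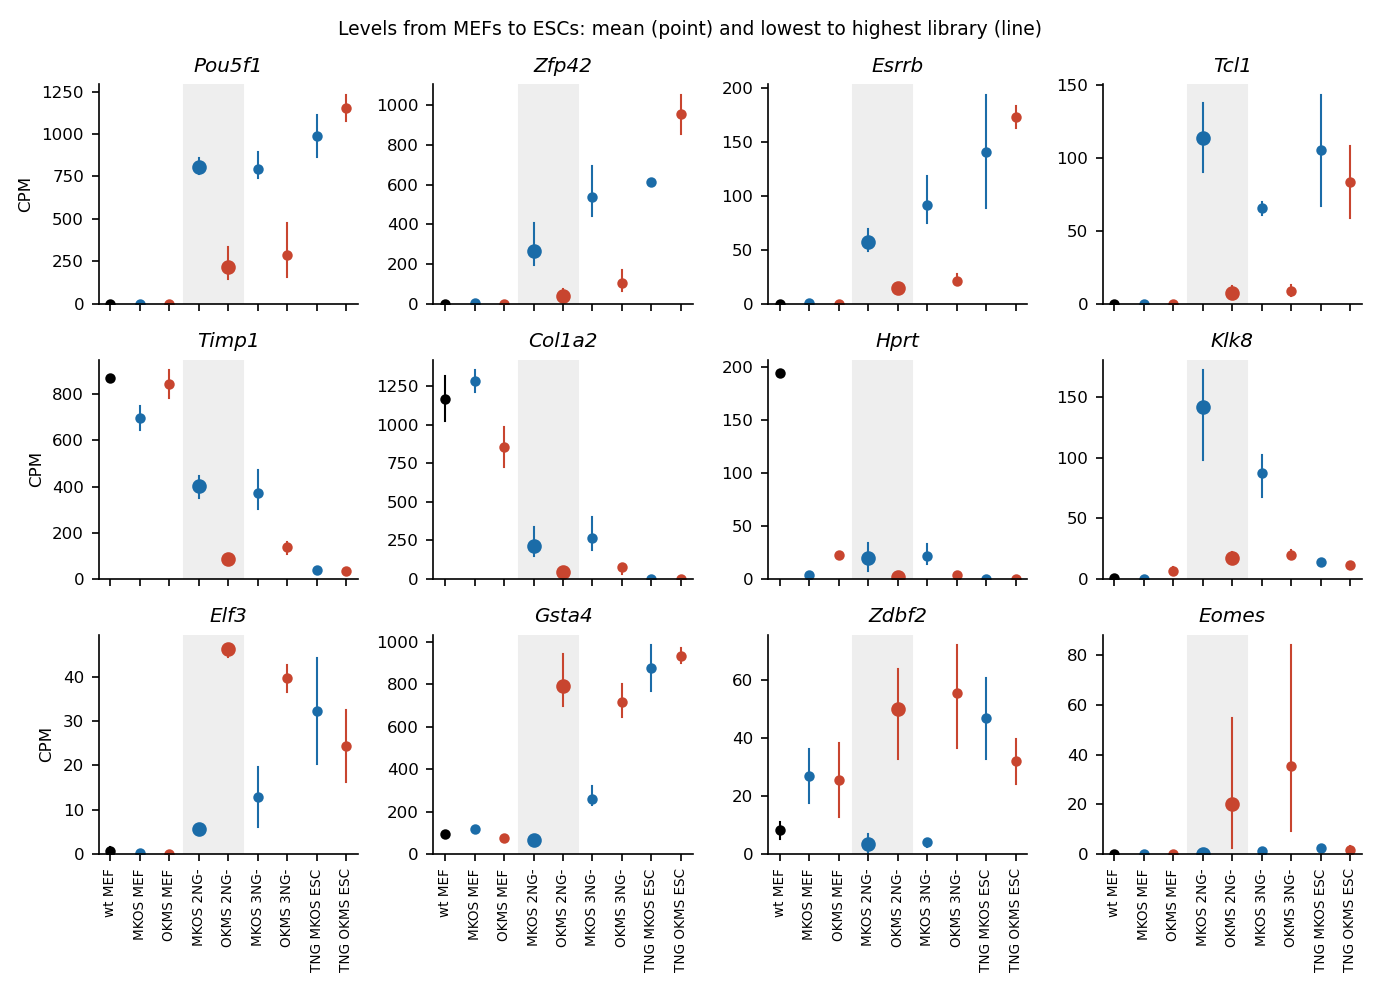
Level in CPM (y axes, linear) of 12 genes in WT, MKOS and OKMS MEFs, E-CAD+ 2NG- cells (shaded), E-CAD+ 3NG- cells and TNG MKOS and TNG OKMS ESCs, with points for the mean and lines from the lowest to the highest library (3 for sorted cells, 2 otherwise). *Zfp42* and *Esrrb* in MKOS lie between MEFs and ESCs, *Klk8* peaks in MKOS 2NG- cells, and *Gsta4* in OKMS is already close to its ESC level.

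The same comparison in E-CAD+ 3NG- cells uses other libraries, sorted from the same kind of culture. There, 339 genes were called (2.17%), 216 higher in MKOS and 123 higher in OKMS. Of the 444 genes higher in MKOS 2NG- cells, 430 had the same direction and 123 were also called in 3NG- cells, which is 27.7% of the 2NG- calls and 56.9% of the 3NG- calls. Of the 349 higher in OKMS, 328 had the same direction and 83 were also called, 23.8% of the 2NG- and 67.5% of the 3NG- calls. The median log2 fold change of these genes was 2.15 in 2NG- and 1.28 in 3NG- cells for MKOS, and -2.14 and -0.94 for OKMS. Since the genes were chosen in 2NG- cells, the smaller medians in 3NG- cells were not tested. The difference between the 2 gates was tested for each gene in the same model.

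By that test, 3 genes (0.0192% of those tested) had a cassette difference that was not the same in both gates, and 832 had an unadjusted p under 0.05 (5.32%). *Gsta4*, a glutathione transferase that detoxifies lipid aldehydes, had 54.8, 70.7, and 75.6 CPM in MKOS and 941, 736, and 699.8 CPM in OKMS 2NG- cells (-3.66 ± 0.29, adjusted p = 2.59e-11). In 3NG- cells *Gsta4* was at 259 ± 52.3 CPM in MKOS and 715 ± 80.0 CPM in OKMS (SD, n = 3), and the differences differed by -2.07 ± 0.38 (adjusted p = 0.0385). *Rpl39l*, a ribosomal protein gene copy, was lower in MKOS in 2NG- cells, with 8.06, 8.71, and 5.96 CPM against 9.54, 29.3, and 19.4 CPM, and higher in MKOS in 3NG- cells, with 82.5 ± 25.4 against 32.3 ± 4.37 CPM (-2.63 ± 0.50, adjusted p = 0.0385). Reads of *Rpl39l* may be shared with close copies elsewhere in the genome. *Syce3*, a component of the synaptonemal complex, had 5.15 CPM in OKMS replicate 3, 0.170 CPM in replicate 1, and no read in the other 2NG- libraries. None of the 3 was called when MKOS replicate 1 or 2 was left out.

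In MEFs before reprogramming, the cassette groups differed in 16 genes (0.102%), 4 higher in MKOS (0.0256%) and 12 higher in OKMS (0.0768%), with an unadjusted p under 0.05 for 6.63% of genes. None of the 444 and 3 of the 349 genes were called there in the same direction. For 211 genes (1.35%) the difference in 2NG- cells was not that in MEFs, 124 above (0.793%) and 87 below 0 (0.557%), with an unadjusted p under 0.05 for 13.5% of genes. These included 96 of the 444 genes higher in MKOS and 64 of the 349 higher in OKMS. *Gsta4* was at 117 ± 15.8 CPM in MKOS and 75.6 ± 11.5 CPM in OKMS MEFs (SD, n = 2), the opposite order to 2NG- cells (-4.34 ± 0.44, adjusted p = 1.81e-08). *Pltp*, a phospholipid transfer protein, had 116, 132, and 123 CPM in MKOS and 8.86, 5.80, and 10.2 CPM in OKMS 2NG- cells, against 10.7 and 27.1 CPM in MEFs (5.04 ± 0.72, adjusted p = 4.41e-05).

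*Nid1*, a basement membrane linker, had 111, 105, and 131 CPM in MKOS and 9.54, 14.5, and 17.0 CPM in OKMS 2NG- cells, against 165 and 312 CPM in MEFs (3.83 ± 0.59, adjusted p = 0.000124). *Fam64a*, a mitotic regulator, had 2.75, 5.31, and 7.05 CPM in MKOS and 41.4, 38.0, and 58.0 CPM in OKMS 2NG- cells, against 39.0 and 32.2 CPM in MEFs (-3.65 ± 0.48, adjusted p = 1.37e-05). *Klk8*, a kallikrein of skin and brain, had 156, 172, and 98.0 CPM in MKOS and 15.5, 13.9, and 22.2 CPM in OKMS 2NG- cells (2.92 ± 0.39, adjusted p = 3.2e-06), while MKOS MEFs had no read and OKMS MEFs had 6.81 CPM. The MEF comparison rests on 2 libraries a group.

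**Figure D5:**
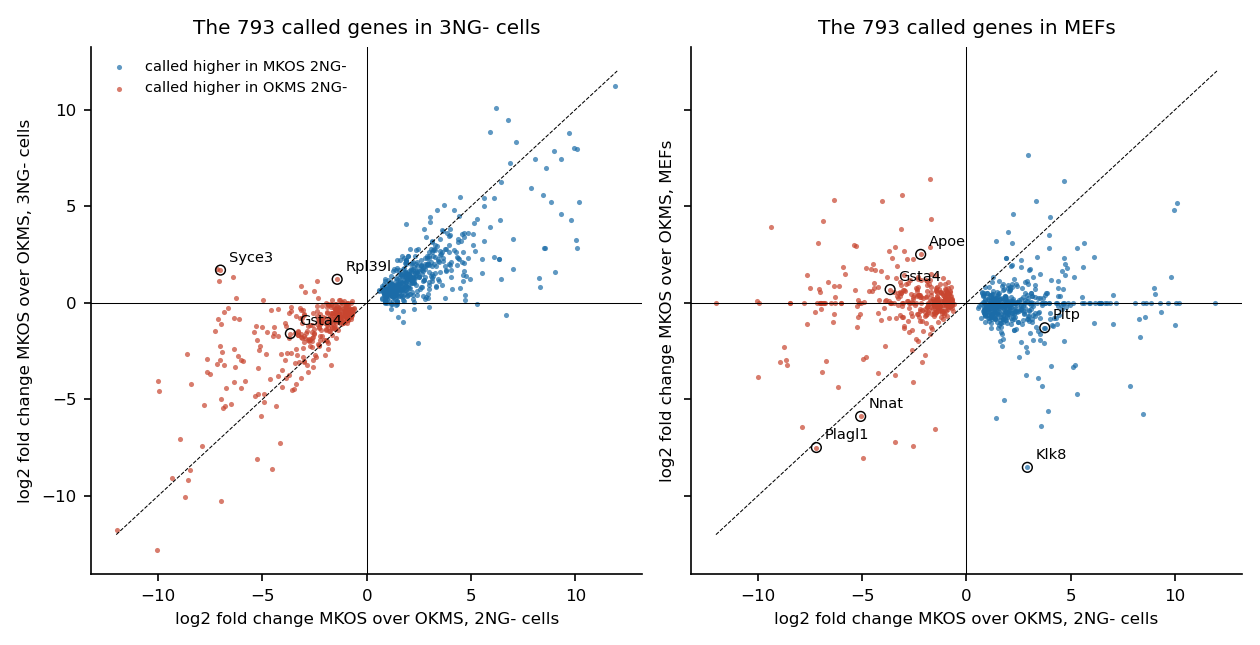
Log2 fold change of MKOS over OKMS in 2NG- cells (x axes) against the same in 3NG- cells (left) and in MEFs (right) for the 793 genes called in 2NG- cells, blue where higher in MKOS and red where higher in OKMS; the dashed line marks equal values. Most points share their sign in 3NG- cells, 430 of 444 and 328 of 349, whereas in MEFs they scatter about 0.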

How the data were processed

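Cells were sorted by FACS and sequenced by STRT, which counts the 5′ ends of polyadenylated RNA. The read counts per transcript were deposited by the authors without normalization, in 1 table of 48 libraries from 20 conditions. The submitters' processing notes name Bowtie 0.12.7 and mm10, the study's methods name mm9, and contig names in the table are those of GRCm38, so genes are given no coordinates from the table. Rows of repeats and spike-in RNA were left out, leaving 24264 transcripts.

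Counts were fitted in edgeR 4.0.16 (R 4.3.3) with TMM scaling, filterByExpr by condition (15630 genes), and quasi-likelihood F tests over all 48 libraries. The 3NG- and MEF differences were contrasts of the same fit. P-values were adjusted by the Benjamini-Hochberg method over all genes tested, with calls at 0.05 or below. The SE is the size of the log2 fold change over the square root of F. CPM are counts over transcript reads, and ± without another label follows a log2 fold change as its SE. Where a group had no read, a bound was set at 3 reads over that group. The steps were tested on simulated data.

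Members and gene lists were chosen with earlier results of these data known. Leading genes were the 15 largest log2 fold changes in each direction among called genes whose libraries did not overlap, with at least 10 CPM in the higher group. From each list up to 4 called members in each direction with the lowest adjusted p were named, with well known members that were not called, and up to 10 genes each from the 3NG- and MEF differences. Other called members are named without this rule. Alternatives were DESeq2 1.42.0, its size factors, library totals, other filters, subsets of libraries, a replicate block, and leaving out libraries. Some genes that met these rules are not reported here.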

Additional observations from a re-analysis of the deposited data

Results flagged for a closer look

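The cassette difference was not the same in 2NG- and 3NG- cells for 3 genes (edgeR's quasi-likelihood test of the difference of differences, adjusted p = 0.0385 for each). The values, as log2 fold change in 2NG- minus that in 3NG- cells, were -2.07 ± 0.38 for *Gsta4*, -2.63 ± 0.50 for *Rpl39l*, and -8.70 ± 1.66 for *Syce3*. The last rests on OKMS replicate 3, which held 5.15 CPM.

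The cassette difference in 2NG- cells was not that in MEFs for 211 genes by the same kind of test. The 10 with the lowest adjusted p were *Klk8* (11.44, a fitted value and no bound, since MKOS MEFs had no read), *Gsta4* (-4.34), *Fam64a* (-3.65), *Rexo2* (3.22), *Pltp* (5.04), *Pdlim1* (3.32), *Nid1* (3.83), *Nme3* (-2.75), *Apoe* (-4.70), and *Capns1* (2.09). For *Apoe*, OKMS replicate 3 was at 488 CPM and the other OKMS libraries at 95.3 and 58.4 CPM. Groups of 3 libraries were too small for the test of a single outlying library.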

How the results depend on the processing

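Among the 793 calls between MKOS and OKMS 2NG- cells, counts moved most with the filter and the libraries. With no filter 1260 genes were called, leaving out single libraries gave 454 to 604, and leaving out replicate 3 of both groups gave 415. Fitted alone, the 6 libraries gave 748 calls among the 11583 genes that passed the filter there. These kept 73.9% of the original calls higher in MKOS and 58.7% of those higher in OKMS. DESeq2 called 1050 genes, and library totals called 508 genes higher in MKOS and 281 higher in OKMS, 64.4% against 56.0% higher in MKOS, with the median of all genes moving to 0.10. The 3 genes that differed between 2NG- and 3NG- cells became 5 with DESeq2, 103 with no filter, 9 with a replicate block, 0 without replicate 3 of both groups, and 13 without the 7 sorted libraries that the averages of the study leave out. Leaving out single libraries gave 0 to 3 genes. The 211 genes that differed from MEFs became 367 with DESeq2, 624 with no filter, and 322 without the 7 libraries. The cause of these moves was not tested. The ESC and MEF comparison stayed within 1.5 times its 7961 calls under each alternative run. Of 144 values for named genes, 136 kept their direction and call with DESeq2, 104 without OKMS replicate 3, and 87 without replicate 3 of both groups. The log2 fold change of *Ifitm1* ran from -3.88 to 0.39 when single libraries were left out, positive without OKMS replicate 3. That of *Cer1* ran from -12.57 to 0, with 0 without OKMS replicate 3, without replicate 3 of both groups, and without the 7 libraries. Deviations from the group mean correlated at -0.012, 0.071, and 0.088 between MKOS and OKMS libraries of the same replicate number. Between libraries of different numbers the correlations were -0.110 to 0.056. The replicate block gave 903 calls, and whether replicate numbers pair the samples was not tested. The shallowest library, with a floor of 0.967 CPM, limits what can be said of genes near 1 CPM.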

Other observations

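Several gene families outside the lists held calls in 1 direction, and they were chosen after their values were seen, so the counts are a description. Of 20 glutathione transferase genes tested, 6 were higher in OKMS, among them *Gstp1*, with 267, 234, and 399 CPM in MKOS and 881, 715, and 645 CPM in OKMS, and *Gstm5* (-2.35 ± 0.37, adjusted p = 6.65e-05). Of 7 kallikrein genes, 4 were higher in MKOS, with *Klk11* at 45.3, 48.4, and 46.9 CPM in MKOS and 0, 2.58, and 0 CPM in OKMS. Of 10 S100a genes, which encode small calcium-binding proteins, 3 were higher in MKOS, led by *S100a13*, with 218, 192, and 261 CPM in MKOS and 13.1, 11.0, and 24 CPM in OKMS (3.65 ± 0.37, adjusted p = 7.04e-09).

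Of 14 serpin B protease inhibitors, 2 were higher in MKOS, against 1 without MKOS replicate 2 or OKMS replicate 3. *Serpinb1a* had 85.5, 103, and 112 CPM in MKOS and 0.852, 4.84, and 1.20 CPM in OKMS (5.60 ± 0.61, adjusted p = 3.16e-08). Of 8 Xlr genes, a lymphocyte-regulated family on the X chromosome whose close copies may share reads, 4 were higher in OKMS, with *Xlr3c* unread in MKOS and at 5.45, 8.70, and 6.49 CPM in OKMS, at least 55.0-fold higher. The same order was seen in MEFs before reprogramming, where *Xlr3c*, *Xlr3b*, *Xlr4a*, and *Xlr4b* were at 0.409, 1.48, 0, and 0 CPM in MKOS and 4.33, 20.4, 1.59, and 4.88 CPM in OKMS, with no call (lowest adjusted p = 0.0817). The 4 became 2 without MKOS replicate 2 or 3. Of 17 Sox genes, 4 were higher in OKMS, with *Sox11* at 2.86, 1.77, and 0.136 CPM in MKOS and 21.0, 20.3, and 29.2 CPM in OKMS. The 4 became 1 without OKMS replicate 3 and 2 without any other library but OKMS replicate 2. *Gpa33*, an intestinal epithelial surface antigen, had 81.5, 91.5, and 113 CPM in MKOS and 4.43, 2.58, and 3.25 CPM in OKMS (4.66 ± 0.45, adjusted p = 6.67e-09).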
